A study of Rattus norvegicus with 10 samples.

Results

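The kidneys labelled necrotic were compared with kidneys of rats on the same choline-deficient diet whose labels do not carry that word. The comparison takes 4 of the 10 arrays of the series, the 2 necrotic and the 2 deficient vegetable oil arrays, and all 29214 probe sets measured on them. Every array held kidney RNA of a pool of 3 male weanling Wistar rats killed after 6 days on the experimental diet. In the necrotic and in the deficient vegetable oil kidneys the diet lacked choline and its fat was vegetable oil, corn and hydrogenated oils by the protocol and corn oil by the sample labels. The control vegetable oil kidneys (2 pools) came from rats given the same fat with choline. They place the levels of the other groups, enter the estimate of the spread and give the deficient minus control differences. Kidneys of rats given menhaden oil, without choline (deficient fish oil, 2 pools) or with it (control fish oil, 2 pools), enter only the estimate of the spread and the levels shown by array. The word necrotic names no diet: the protocol lists 4 diets for 5 groups of arrays, and how animals were assigned to the necrotic pools is not stated. Diet, sex, strain, age class and duration are therefore shared by the groups compared, and the label necrotic is what differs.

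Choline is the precursor of phosphatidylcholine, the main membrane phospholipid, and of betaine, which is a methyl donor and a renal osmolyte. Weanling rats deprived of it are known to develop acute kidney injury with necrosis of the cortical tubules. The cortex consists mostly of proximal tubules, which reabsorb filtered solutes with energy from mitochondrial oxidation, followed along the nephron by the thick ascending limb, the distal convoluted tubule and the collecting duct. After tubular death, phagocytes clear debris and surviving tubule cells lose their specialised functions, divide and later mature again.

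The values are log2 intensities on which 1 unit is a 2-fold difference, and errors are moderated standard errors of the difference between the means of 2 pools. A probe set was called at an adjusted p under 0.05 over all probe sets. Of the 29214 probe sets, 2860 (9.79%) were called, 1376 (4.71%) higher and 1484 (5.08%) lower in the necrotic kidneys, and 6862 had an unadjusted p under 0.05. Among the called, 400 (1.37%) were at least 2-fold higher and 611 (2.09%) at least 2-fold lower. Of 14506 named genes, 2061 (14.2%) were called, 930 (6.41%) higher and 1131 (7.8%) lower. The arrays of the 2 groups did not overlap for 13625 probe sets (46.6%) and for 7824 genes (53.9%). Among the 13904 probe sets without a single gene symbol, 733 (5.27%) were called. The median difference over all genes was 0.006. A lower level in whole kidney RNA can come from fewer cells of a type or from less RNA per cell, which cannot be told apart.

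The 2 deficient vegetable oil pools were not alike. Deficient replicate 2 was nearer to the necrotic mean than replicate 1 in 2305 of the 2860 called probe sets (80.6%). Without replicate 2 the comparison called 3125 probe sets and without replicate 1 it called 1040. A fit of the 4 arrays alone called 654. In a fit where a group keeps 1 pool, that pool is assumed to vary like the others. Calls that ended in such fits are given beside the genes the results turn on. Alb, the albumin gene, shows how far the pools could differ, at 6.59 and 7.15 in the necrotic kidneys, 6.69 and 11.09 in the deficient vegetable oil kidneys and 11.32 and 12.18 in the control vegetable oil kidneys. Its necrotic minus deficient difference of -2.02 ± 1.19 was not called (adjusted p = 0.369). Defining genes of kidney tubules were bright, with Slc34a1 and Umod above 13 in both deficient vegetable oil pools and above 10 in both necrotic pools.

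The falls exceeded the rises in size. Egf, the epidermal growth factor precursor made in the distal nephron, read 7.68 and 7.67 in the necrotic kidneys, 12.49 and 12.01 in the deficient vegetable oil kidneys and 12.56 and 12.65 in the control vegetable oil kidneys. Both necrotic pools lay far below every other pool, and the difference from the deficient pools was -4.57 ± 0.17, or 23.8-fold (adjusted p = 7.44e-06). Calb1, a calcium-binding protein of the distal convoluted and connecting tubule, read 7.35 and 7.11 in the necrotic kidneys against 11.87 and 11.13 in the deficient vegetable oil kidneys, a difference of -4.28 ± 0.31. The other falls among the 20 largest lay between -4.31 and -3.67. They include Slc7a12 and Slc7a13, amino acid transporter family members, Slco1a6, an organic anion transporter, and Folh1, Mep1b and Dnase1, which encode a folate hydrolase, a brush border metalloprotease and a secreted nuclease. Further members were the metabolic genes Acmsd, Hnmt, Miox, Rgn, Acsm3 and Ddc, the kallikreins Klk1 and Klk1b3, and Cacng5, Spp2, Ucp1 and Fam151a. All 20 had both necrotic arrays below both deficient arrays, which the rule that chose them required. Ucp1, the uncoupling protein of brown fat, differed by -3.92 ± 0.75, and its call ended without deficient replicate 1 (adjusted p = 0.102) and without necrotic replicate 2 (adjusted p = 0.0899).

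**Figure D1:**
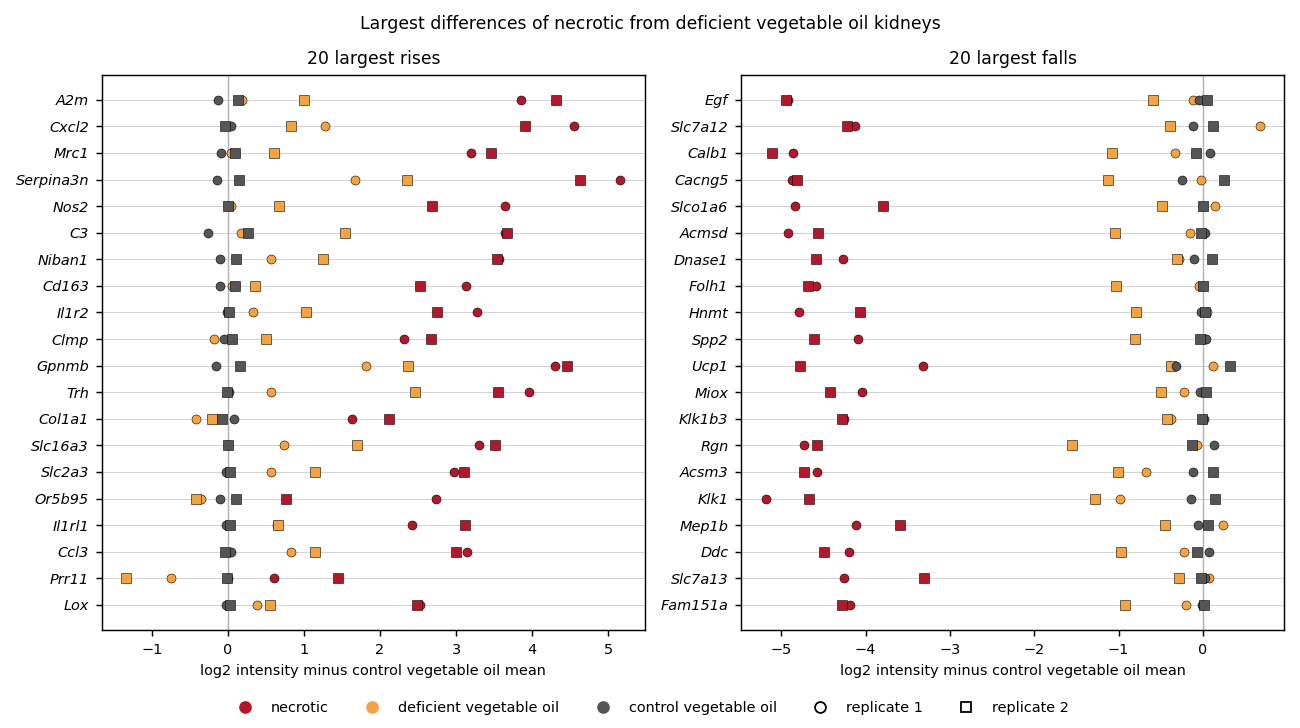
The 20 largest rises (left) and 20 largest falls (right) of necrotic from deficient vegetable oil kidneys, chosen for their size. Each point is 1 array (circle replicate 1, square replicate 2) as log2 intensity minus the mean of the 2 control vegetable oil arrays; among the falls the necrotic pools are far below the deficient and control pools, with Egf at -4.57 from the deficient pools, and among several rises the deficient pools are already above the control pools.

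Genes of the proximal tubule fell as a group. In the list for its early segments, 0 of 40 measured members rose and 34 fell, with a median difference of -1.24, and in the list for the straight segment 0 of 22 rose and 16 fell, with a median of -1.28. Against the control vegetable oil kidneys the deficient vegetable oil kidneys had medians of -0.31 and -0.18 for the same lists. Slc34a1, the sodium-phosphate cotransporter of the brush border, read 10.58 and 10.43 in the necrotic kidneys, 13.83 and 13.69 in the deficient vegetable oil kidneys and 14.00 and 14.03 in the control vegetable oil kidneys. Its necrotic pools lay below all others, by 3.26 units from the deficient mean (-3.26 ± 0.11, adjusted p = 7.44e-06). Slc34a3, a second phosphate carrier, differed by -3.32 ± 0.20, Kap, an androgen-regulated protein of the proximal tubule in mice, by -3.40 ± 0.44, and the meprin subunits Mep1a and Mep1b by -3.28 ± 0.12 and -3.74 ± 0.26. Lrp2, the megalin receptor that takes up filtered protein, fell less, by 1.05 on the log2 scale, to 11.50 and 11.82 in the necrotic kidneys against 12.77 and 12.65 in the deficient vegetable oil kidneys. The 34 called members of the early segments were 22 when only the 4 arrays were fitted, 24 without deficient replicate 1 and 25 without necrotic replicate 2.

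Downstream of the proximal tubule the called members of the lists were also mostly falls. In the thick ascending limb 8 of 16 members fell and 1 rose (median -0.71). Umod, the most abundant protein of urine and specific to this segment, read 10.57 and 10.40 in the necrotic kidneys, 13.63 and 13.56 in the deficient vegetable oil kidneys and 13.74 and 13.81 in the control vegetable oil kidneys, a difference of -3.11 ± 0.13 from the deficient pools. Casr, the calcium-sensing receptor, was at 8.30 and 8.42 in the necrotic, 9.38 and 9.91 in the deficient vegetable oil and 10.93 and 11.15 in the control vegetable oil kidneys. Its order therefore runs stepwise from control through deficient to necrotic, unlike that of Umod, where the deficient pools lay close to the control pools. The 1 member that rose was Cldn16, a claudin of the paracellular magnesium path, by 0.56 (adjusted p = 0.048). It was not called when any 1 of the 4 arrays was left out, with adjusted p between 0.0609 and 0.214.

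In the distal convoluted and connecting tubule 5 of 15 members fell and 0 rose (median -0.37). Those that fell were Calb1, Klk1, Slc12a3, S100g and Cnnm2, the last not called without deficient replicate 1 (adjusted p = 0.0546). Slc12a3, the thiazide-sensitive sodium chloride cotransporter, read 8.73 and 8.48 in the necrotic kidneys, 11.27 and 11.20 in the deficient vegetable oil kidneys and 11.77 and 11.97 in the control vegetable oil kidneys (-2.63 ± 0.15 from the deficient pools). S100g, the vitamin D-dependent calcium carrier calbindin-D9k, differed by -2.41 ± 0.16. Kl, which encodes klotho, the co-receptor for the phosphate hormone FGF23, fell to 9.94 and 10.11 in the necrotic kidneys, against 12.30 and 11.76 in the deficient vegetable oil kidneys.

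In the collecting duct, 13 of 18 intercalated cell genes fell and 0 rose (median -0.998), and 8 of 19 principal cell genes fell and 0 rose (median -0.57). Rhcg, an ammonia channel of the intercalated cell, read 10.12 and 10.14 in the necrotic kidneys, 11.97 and 11.88 in the deficient vegetable oil kidneys and 12.20 and 12.32 in the control vegetable oil kidneys. Its replicates nearly coincide, and the difference of -1.79 ± 0.11 separates the groups fully. The anion exchangers Slc26a4 and Slc26a7 differed by -1.78 ± 0.24 and -1.60 ± 0.19. Among principal cell genes, Scnn1g, a subunit of the epithelial sodium channel, differed by -1.10 ± 0.14 and Avpr2, the vasopressin receptor, by -1.06 ± 0.15. Aqp2, the vasopressin-regulated water channel, was unequal between the necrotic pools, at 12.15 and 11.18 against 12.91 and 12.96 in the deficient vegetable oil kidneys. The call of Aqp2 (-1.27 ± 0.29) ended without necrotic replicate 2 (adjusted p = 0.0976), deficient replicate 1 (0.131) and deficient replicate 2 (0.0842). The principal cell count was 3 with only the 4 arrays, 4 without deficient replicate 1 and 5 without necrotic replicate 2.

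Glomerular and endothelial genes had medians near 0. In the podocyte and parietal cell list 1 of 15 rose and 2 fell (median -0.07), and in the endothelial list 1 of 21 rose and 4 fell (median -0.01). Kirrel1, a slit diaphragm protein, read 10.21 and 10.51 in the necrotic kidneys against 9.17 and 9.38 in the deficient vegetable oil kidneys, while the glomerular basement membrane collagen Col4a4 and Nphs1, which encodes nephrin, were at -0.76 ± 0.16 and -0.79 ± 0.19. Both of these calls ended without either deficient replicate or without necrotic replicate 1, with adjusted p of 0.115, 0.0585 and 0.11 for Col4a4 and 0.12, 0.102 and 0.155 for Nphs1, so that the podocyte list then had 0 falls. All 4 falls among endothelial genes were under 1 unit, and the count was 0 without deficient replicate 1, 0 without necrotic replicate 1 and 2 without deficient replicate 2 or necrotic replicate 2.

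**Figure D2:**
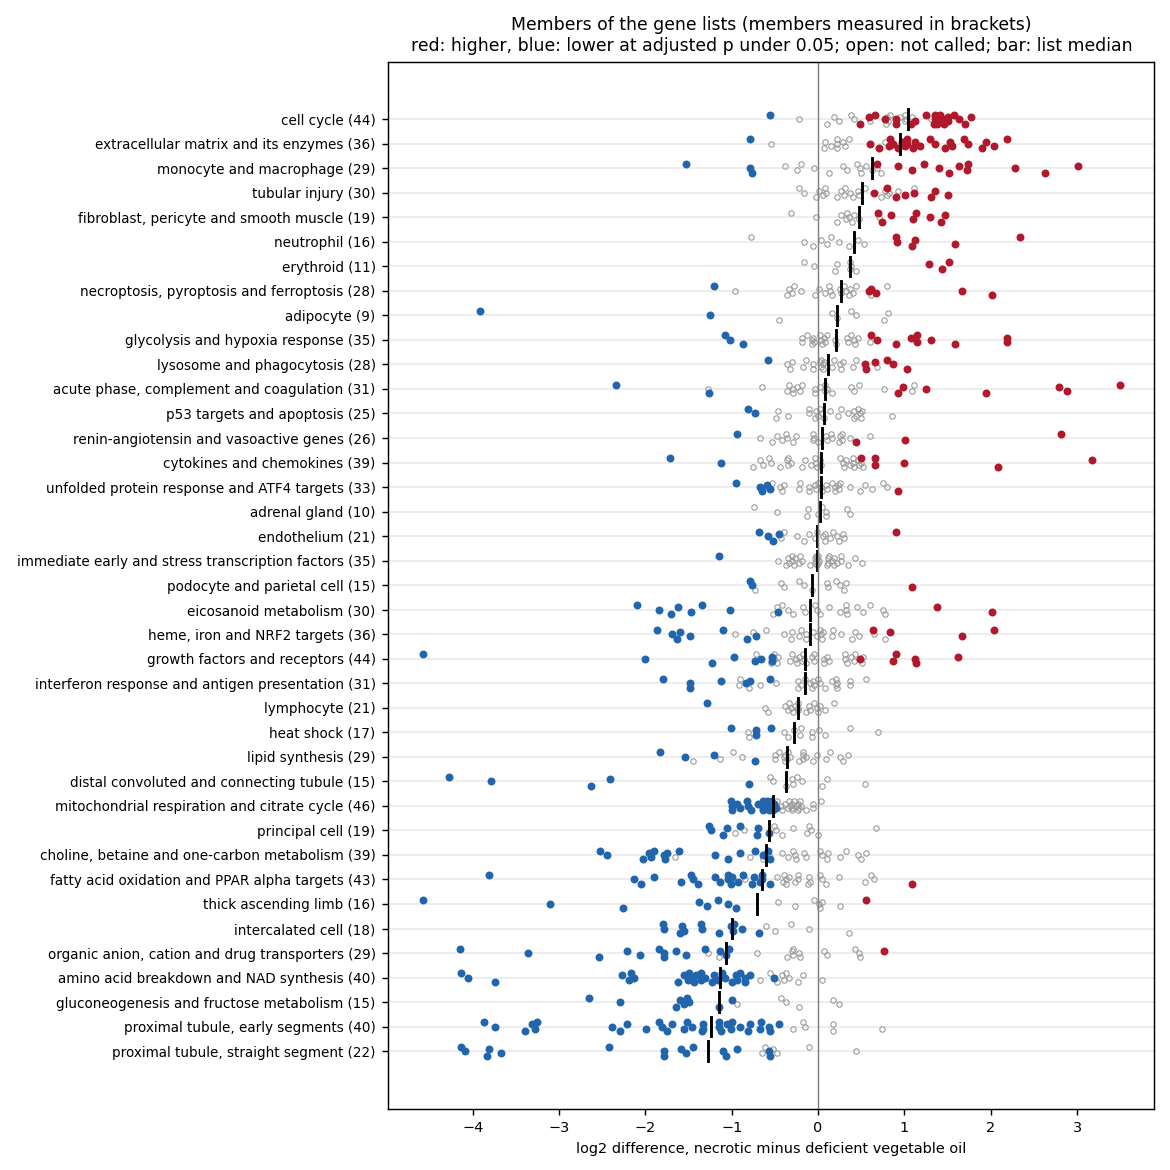
Log2 difference of necrotic minus deficient vegetable oil kidneys for every measured member of 39 gene lists, 1 row per list with the number of members in brackets, ordered by the list median (bar). Red and blue points were called higher and lower and open points were not called; cell cycle and extracellular matrix lists have the highest medians (1.05 and 0.95) and both proximal tubule lists the lowest (-1.24 and -1.28).

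Genes of intermediary metabolism fell with the tubule lists. Amino acid breakdown and NAD synthesis had 30 falls and 0 rises among 40 members (median -1.14), gluconeogenesis and fructose metabolism 9 falls and 0 rises among 15 (median -1.15). Acmsd, which diverts tryptophan carbon away from NAD synthesis, read 7.57 and 7.92 in the necrotic kidneys, 12.33 and 11.44 in the deficient vegetable oil kidneys and 12.51 and 12.47 in the control vegetable oil kidneys. Kynu and Kmo, enzymes of the same kynurenine route, differed by -2.28 ± 0.35 and -2.19 ± 0.29, and Ddc, aromatic amino acid decarboxylase, which forms dopamine in the proximal tubule, by -3.74 ± 0.22. For fructose, Khk, the ketohexokinase, differed by -2.29 ± 0.17 and Tkfc, which acts after it, by -2.66 ± 0.20. Miox, the inositol oxygenase of the proximal tubule, read 9.40 and 9.02 in the necrotic kidneys against 13.22 and 12.94 in the deficient vegetable oil kidneys. The amino acid list had 14 called members with only the 4 arrays fitted and 23 to 31 when 1 array was left out, and the gluconeogenesis list 5 with only the 4 arrays, 5 without deficient replicate 1 and 6 without necrotic replicate 2.

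Fatty acid oxidation and PPAR alpha target genes had 22 falls and 1 rise among 43 members (median -0.65). Ehhadh, a peroxisomal beta-oxidation enzyme, read 10.65 and 10.17 in the necrotic kidneys, 12.54 and 12.08 in the deficient vegetable oil kidneys and 12.44 and 12.51 in the control vegetable oil kidneys. Acsm3 and Acsm5, medium-chain acyl-CoA synthetases, differed by -3.81 ± 0.14 and -2.05 ± 0.13, and Slc27a2, a fatty acid transporter and acyl-CoA synthetase, by -1.59 ± 0.12. Ucp2, an uncoupling protein of the mitochondrial inner membrane, was the 1 member that rose, by 1.09, with no call without deficient replicate 1 (adjusted p = 0.0922) or necrotic replicate 2 (0.0866). The count of falls was 12 without deficient replicate 1 and 7 with only the 4 arrays.

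In the respiratory chain and citrate cycle the shifts were smaller and spread over many members, with 24 of 46 lower, 0 higher and a median of -0.52. The range was -1.005 to 0.03, and 45 of 46 members had a negative difference. Esrrg, an orphan nuclear receptor that drives mitochondrial genes, read 9.10 and 9.11 in the necrotic kidneys, 10.21 and 9.99 in the deficient vegetable oil kidneys and 10.57 and 10.65 in the control vegetable oil kidneys. Deficient replicate 2 lay below replicate 1 for Sucla2, a subunit of succinyl-CoA synthetase, at 10.61 and 10.53 in the necrotic kidneys against 11.80 and 11.34 in the deficient vegetable oil kidneys. Sdha, the catalytic subunit of complex II, had the same order, at 11.26 and 11.19 against 12.27 and 11.98. The 24 calls were 7 without deficient replicate 1, 6 without necrotic replicate 2, 12 without necrotic replicate 1 and 1 with only the 4 arrays, and 27 without deficient replicate 2.

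The choline, betaine and one-carbon list, which covers the nutrient missing from the diet of both groups, had 17 falls and 0 rises among 39 members (median -0.60). Against the control vegetable oil kidneys its median in the deficient vegetable oil kidneys was -0.14. Gnmt, glycine N-methyltransferase, read 6.70 and 6.56 in the necrotic kidneys, 8.94 and 8.38 in the deficient vegetable oil kidneys and 8.83 and 9.14 in the control vegetable oil kidneys. Gamt, the last enzyme of creatine synthesis, differed by -2.53 ± 0.17, Cth, which makes cysteine from cystathionine, by -1.93 ± 0.23, and Bhmt2, a homocysteine methyltransferase, by -1.96 ± 0.19. Bhmt, the betaine-dependent enzyme, was at 9.49 and 8.31 in the necrotic kidneys against 11.79 and 10.90 in the deficient vegetable oil kidneys, and its call ended without deficient replicate 1 (adjusted p = 0.0706). Chdh, choline dehydrogenase, which oxidises choline towards betaine, was not called: it read 10.58 and 10.55 in the necrotic kidneys, 11.22 and 11.05 in the deficient vegetable oil kidneys and 10.52 and 10.69 in the control vegetable oil kidneys. The list held 10 called members with only the 4 arrays fitted and 12 to 20 when 1 array was left out.

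Drug and anion transporters had 14 falls and 1 rise among 29 members (median -1.06), with 0 rises without deficient replicate 1 or necrotic replicate 2 and 3 without deficient replicate 2. Slc22a8, an organic anion transporter of the basolateral membrane, read 11.17 and 10.14 in the necrotic kidneys against 13.11 and 12.63 in the deficient vegetable oil kidneys, and Slc51a, a subunit of the organic solute carrier, 6.76 and 6.69 against 10.71 and 9.45. Over the whole Slc family, solute carriers of every kind, 83 of 315 members fell and 23 rose, with a median of -0.14 that stayed negative under the 3 other scalings. There were 50 falls and 4 rises without deficient replicate 1, 51 and 9 without necrotic replicate 2, 67 and 10 without necrotic replicate 1, and 46 and 5 with only the 4 arrays. Slc16a3, a lactate exporter, Slc2a3, a glucose transporter, and Slc7a11, the cystine carrier, were its largest rises, but Slc7a11 (1.67 ± 0.40) was not called without any 1 of the 4 arrays (adjusted p between 0.0591 and 0.184). Of 69 Cyp genes 12 fell and 4 rose, the falls led by Cyp2d2 (-2.71), Cyp2e1 (-2.42) and Cyp4f1 (-2.09). The shares that rose, 7.30% of Slc and 5.80% of Cyp genes, were near the 6.41% of all genes. The Cyp falls numbered 7 without deficient replicate 1, 7 without necrotic replicate 2 and 7 with only the 4 arrays. Among 18 glutathione transferases 7 fell, led by Gsta4 (-1.69 ± 0.23), and 3 rose, led by Gstm5 (1.63 ± 0.16). The glutathione transferase falls numbered 4 and the rises 1 without deficient replicate 1, against 4 and 2 without necrotic replicate 2 and 2 and 1 with only the 4 arrays. These enzymes are close paralogs, and cross-hybridisation between them was not tested.

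**Figure D3:**
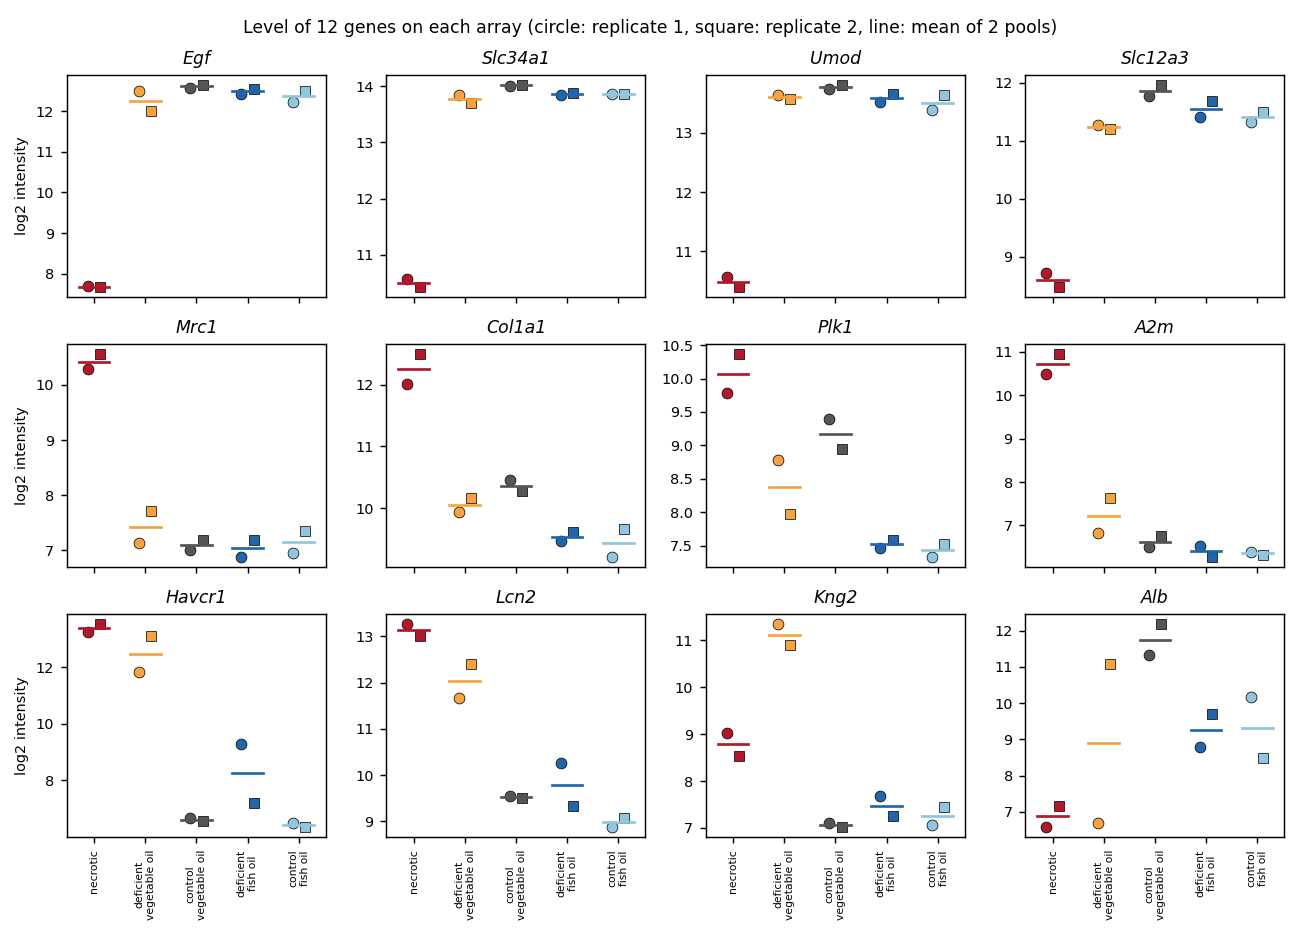
Log2 intensity of 12 genes on each of the 10 arrays, by group from necrotic at the left through deficient and control vegetable oil to deficient and control fish oil at the right (circle replicate 1, square replicate 2, line mean of 2 pools); each panel has its own scale. Egf, Slc34a1, Umod and Slc12a3 are low only in the necrotic pools shown, Havcr1 and Lcn2 are high in both choline-deficient vegetable oil groups, Kng2 is highest in the deficient pools (11.35 and 10.90), and Alb differs between the deficient pools (6.69 and 11.09).

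Classical markers of tubular injury were already high in the deficient vegetable oil kidneys. Havcr1, the membrane protein KIM-1 shown by injured proximal tubule cells, read 13.24 and 13.53 in the necrotic kidneys, 11.82 and 13.11 in the deficient vegetable oil kidneys and 6.67 and 6.56 in the control vegetable oil kidneys. The necrotic pools were both above the deficient pools, but the difference of 0.92 ± 0.60 was not called (adjusted p = 0.430). Lcn2, an iron-siderophore carrier, read 13.27 and 13.00 in the necrotic against 11.66 and 12.39 in the deficient vegetable oil kidneys (1.11 ± 0.31, adjusted p = 0.0589). Clu and Spp1, the secreted proteins clusterin and osteopontin, were at 0.83 ± 0.30 and 0.22 ± 0.20, also not called. Spp1 read 14.21 and 14.23 in the necrotic, 13.89 and 14.11 in the deficient vegetable oil and 12.65 and 12.48 in the control vegetable oil kidneys.

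Of 30 genes of the injury list 8 rose and 0 fell (median 0.51), while the deficient vegetable oil kidneys stood 0.92 above the control vegetable oil kidneys in the median. The 8 were the keratins Krt8, Krt18 and Krt19, Cd44, Cdh6, Prom1, S100a6 and Areg. Of these, Cd44 and Cdh6 were not called without deficient replicate 1 (adjusted p = 0.0589 and 0.141) or without necrotic replicate 1 (0.0965 and 0.13) or 2 (0.117 and 0.156). S100a6 was not called without deficient replicate 1 (0.0662) or necrotic replicate 2 (0.0525), nor Krt8 without deficient replicate 2 (0.0658) or necrotic replicate 2 (0.0996). Krt18, a filament of simple epithelia, read 11.77 and 11.83 in the necrotic kidneys, 10.62 and 10.77 in the deficient vegetable oil kidneys and 9.71 and 9.86 in the control vegetable oil kidneys. Prom1, a membrane protein of tubular progenitor-like cells, read 9.59 and 9.53 in the necrotic kidneys, 8.77 and 8.75 in the deficient vegetable oil kidneys and 9.31 and 9.11 in the control vegetable oil kidneys, so its deficient pools were the lowest. Without deficient replicate 2, whose level was nearer the necrotic pools, the list had 15 rises, without necrotic replicate 2 it had 4 and without deficient replicate 1 it had 5. With only the 4 arrays it had 2.

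The immediate early and stress transcription factors, which respond within minutes to hours of a stimulus, hardly separated the groups. In 35 members 0 rose and 1 fell, with a median of -0.01, against a median of 0.90 for the deficient vegetable oil over the control vegetable oil kidneys. Averaged over the list, the necrotic arrays stood 1.02 and 0.84 above the control mean and the deficient vegetable oil arrays 1.07 and 0.89. The levels of the 2 groups therefore overlapped. The 1 that fell was Atf3, a stress-induced repressor, which read 9.94 and 10.27 in the necrotic kidneys, 11.52 and 10.97 in the deficient vegetable oil kidneys and 7.35 and 7.22 in the control vegetable oil kidneys (-1.14 ± 0.24). Its call ended without deficient replicate 1 (adjusted p = 0.145), necrotic replicate 1 (0.108) and necrotic replicate 2 (0.056).

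Of 39 cytokine and chemokine genes 6 rose and 2 fell (median 0.04). The share that rose (15.4%) was above the 6.41% of all genes. The share that fell (5.13%) was below the 7.8% of all genes. Cxcl2, a neutrophil-attracting chemokine, read 9.54 and 8.90 in the necrotic kidneys, 6.28 and 5.83 in the deficient vegetable oil kidneys and 5.04 and 4.95 in the control vegetable oil kidneys, a difference of 3.17 ± 0.25 from the deficient pools. Ccl3, a macrophage inflammatory protein, differed by 2.09 ± 0.13, and Cxcl3, Cxcl6, Nfkbiz and Birc3, which complete the 6, by 0.49 to 0.99. Cxcl3 was not called without deficient replicate 1 (adjusted p = 0.0587), Cxcl6 without deficient replicate 1 (0.077) or necrotic replicate 2 (0.0623), and Nfkbiz and Birc3 without any 1 of the 4 arrays (0.0679 to 0.204 and 0.055 to 0.122). The list median was between -0.09 and 0.23 when 1 array was left out. The 6 rises numbered 2 without deficient replicate 1, 4 without necrotic replicate 1 and 2 with only the 4 arrays. Cxcl10, an interferon-induced chemokine for T cells, went the other way: 9.19 and 9.53 in the necrotic kidneys, 11.20 and 10.94 in the deficient vegetable oil kidneys and 9.76 and 9.78 in the control vegetable oil kidneys. Ccl4, which binds the same receptor as Ccl3, also fell, by 1.12. The necrotic pools thus held the higher Ccl3 and the lower Ccl4 of the compared groups.

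Macrophage genes rose, but not all of them. Of 29 members 12 rose and 3 fell (median 0.62), after a median of 0.71 for the deficient vegetable oil over the control vegetable oil kidneys. Mrc1, the mannose receptor of tissue-resident and alternatively activated macrophages, read 10.29 and 10.55 in the necrotic kidneys, 7.13 and 7.70 in the deficient vegetable oil kidneys and 7.01 and 7.18 in the control vegetable oil kidneys (3.00 ± 0.22, or 8.03-fold). Cd163, the scavenger receptor for haemoglobin-haptoglobin complexes, read 9.17 and 8.57 in the necrotic kidneys against 6.10 and 6.39 in the deficient vegetable oil kidneys. In both genes the deficient pools lay close to the control pools, and the necrotic pools stood apart.

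Gpnmb, a glycoprotein of lipid-laden and phagocytic macrophages, was instead raised in steps, at 11.98 and 12.14 in the necrotic kidneys, 9.50 and 10.05 in the deficient vegetable oil kidneys and 7.53 and 7.84 in the control vegetable oil kidneys. The C-type lectins Clec4d and Clec4e, which sense microbial glycolipids and dead cells, differed by 1.74 ± 0.29 and 1.73 ± 0.16. The 3 members that fell were Ccr2, the receptor for the monocyte chemokine CCL2 (-1.53 ± 0.38), Adgre1, a macrophage surface receptor (-0.77 ± 0.18), and Cd74, the invariant chain of class II molecules (-0.79 ± 0.15). The calls of all 3 depended on single arrays: without necrotic replicate 1 their adjusted p were 0.106, 0.142 and 0.0699, and without necrotic replicate 2 that of Ccr2 was 0.145. Without deficient replicate 1 Adgre1 and Cd74 had 0.0827 and 0.0716, and without deficient replicate 2 Adgre1 had 0.114. Ccr2 read 8.27 and 8.13 in the necrotic kidneys, 9.01 and 10.46 in the deficient vegetable oil kidneys and 7.88 and 7.86 in the control vegetable oil kidneys. The summed intensity of the whole macrophage list was 40126 and 43293 in the necrotic, 28982 and 37223 in the deficient vegetable oil and 22574 and 23640 in the control vegetable oil kidneys. The rises numbered 9 to 18 when 1 array was left out and 5 with only the 4 arrays.

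Class II antigen presentation genes fell together with Cd74. In the interferon and antigen presentation list 7 of 31 members fell and 0 rose (median -0.15). RT1-Da, a chain of a rat class II molecule, read 9.65 and 10.14 in the necrotic kidneys against 11.30 and 11.45 in the deficient vegetable oil kidneys. RT1-Db1, of the same molecule, read 9.95 and 10.10 in the necrotic kidneys against 11.52 and 11.51 in the deficient vegetable oil kidneys. Both necrotic pools were below the deficient and control pools in each gene, with differences of -1.48 ± 0.20 and -1.49 ± 0.23. RT1-Bb, of the other class II isotype, differed by -1.12 ± 0.20, and its call ended without deficient replicate 1 (adjusted p = 0.0629) and necrotic replicate 2 (0.0634). The count of falls was 3 without deficient replicate 1, 3 without either necrotic replicate and 4 with only the 4 arrays. Of 21 lymphocyte markers 1 fell (4.76%, against 7.8% of all genes) and 0 rose (median -0.23). Their differences were negative in 18 of 21. In 12 of the 21 both necrotic arrays lay below both deficient arrays, against 3796 of all 14506 genes. Their summed intensity was 2848 and 2954 in the necrotic, 3169 and 3494 in the deficient vegetable oil and 2733 and 3006 in the control vegetable oil kidneys. The 1 that fell was Nkg7, a granule protein of killer cells, by 1.28.

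Of 16 neutrophil genes 6 rose and 0 fell (median 0.41). The count was 3 without deficient replicate 1, 4 without deficient replicate 2, 3 without necrotic replicate 1, where the median was 0.10, and 2 with only the 4 arrays. Il1r2, the decoy receptor for interleukin 1, read 8.78 and 8.25 in the necrotic kidneys, 5.83 and 6.52 in the deficient vegetable oil kidneys and 5.49 and 5.51 in the control vegetable oil kidneys. Cxcr2, the receptor for CXCL2, was at 8.17 and 7.27 in the necrotic kidneys against 5.95 and 6.31 in the deficient vegetable oil kidneys, and its call ended without deficient replicate 1 (adjusted p = 0.0841). The list summed to 4029 and 2910 in the necrotic kidneys, 2024 and 2194 in the deficient vegetable oil kidneys and 2072 and 2387 in the control vegetable oil kidneys. The granule enzyme genes Mpo and Elane, of immature neutrophils, were not called, at -0.78 ± 0.38 and 0.24 ± 0.18. Erythroid genes were also higher, 3 of 11 with 0 lower. They were Ahsp, which stabilises globin, Hemgn, a nuclear protein of erythroid cells, and Alas2, the first enzyme of heme synthesis there, of which Ahsp was not called without necrotic replicate 1 (adjusted p = 0.0529) and Alas2 without any 1 of the 4 arrays (0.115 to 0.144). The erythroid list's summed intensity was 20278 and 20269 in the necrotic, 13956 and 14702 in the deficient vegetable oil and 15483 and 14400 in the control vegetable oil kidneys. Ahsp read 9.16 and 8.76 in the necrotic, 7.57 and 7.31 in the deficient vegetable oil and 8.78 and 8.11 in the control vegetable oil kidneys. Its necrotic and control arrays therefore overlapped, and its deficient pools were the lowest of these. The part of the erythroid genes and that of the leukocyte markers in the other differences was not tested.

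Acute phase, complement and coagulation genes gave the largest rise of all. A2m, alpha-2-macroglobulin, a protease inhibitor that the rat induces strongly in inflammation, read 10.49 and 10.94 in the necrotic kidneys, 6.82 and 7.62 in the deficient vegetable oil kidneys and 6.49 and 6.77 in the control vegetable oil kidneys (3.49 ± 0.26, or 11.3-fold). C3, the central complement component, read 12.84 and 12.87 in the necrotic kidneys against 9.37 and 10.75 in the deficient vegetable oil kidneys. Serpina3n, an acute phase serpin, differed by 2.88 ± 0.68, with adjusted p between 0.0591 and 0.186 when any 1 of the 4 arrays was left out. Fgg, a chain of fibrinogen, was at 12.47 and 11.82 in the necrotic kidneys, 10.64 and 11.48 in the deficient vegetable oil kidneys and 7.00 and 7.40 in the control vegetable oil kidneys, and was not called (1.09 ± 0.36, adjusted p = 0.102). Over the whole list of 31 genes 7 rose (22.6%, against 6.41% of all genes) and 2 fell (6.45%, near the 7.8% of all genes). There were 3 rises without necrotic replicate 2 and 4 with only the 4 arrays, and 4 falls without deficient replicate 1.

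The 2 that fell were the kininogens Kng2 and Kng1, precursors of bradykinin. Kng2 read 9.03 and 8.54 in the necrotic kidneys, 11.35 and 10.90 in the deficient vegetable oil kidneys and 7.10 and 7.03 in the control vegetable oil kidneys, so that the necrotic pools stood between the other groups. Its difference was -2.34 ± 0.23 from the deficient pools, which in turn stood 4.06 ± 0.23 above the control pools. Kng1 followed the same order, with -1.26 ± 0.24 against the deficient pools, and was not called without deficient replicate 2 (adjusted p = 0.0572) or necrotic replicate 2 (0.0697). The kininogens are close paralogs whose probe sets may share targets.

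Kng2, Kng1, Atf3, Cxcl10 and Ccl4 belong to 25 probe sets that were called lower in the necrotic than in the deficient vegetable oil kidneys and higher in the deficient than in the control vegetable oil kidneys. Another 6 were called the opposite way, 54 were higher and 22 lower in both steps, which makes 107 called in both. The comparisons share the deficient arrays, so a high or low deficient value moves them in opposite directions. Csrp3, a muscle LIM protein, was at 6.96 and 6.50 in the necrotic kidneys, 10.48 and 8.29 in the deficient vegetable oil kidneys and 6.07 and 6.17 in the control vegetable oil kidneys, and was not called without necrotic replicate 1 (adjusted p = 0.0621) or 2 (0.113). Fcnb, a ficolin of the lectin complement pathway, read 8.67 and 8.37 in the necrotic kidneys, 10.20 and 10.87 in the deficient vegetable oil kidneys and 8.32 and 8.41 in the control vegetable oil kidneys. For Fcnb and for Slc10a2, the ileal and renal bile acid transporter (8.14 and 8.33 in the necrotic, 9.55 and 9.52 in the deficient vegetable oil and 8.16 and 8.10 in the control vegetable oil kidneys), the necrotic arrays overlapped with the control arrays. Adamts5, an aggrecanase, took the opposite course, at 9.67 and 9.63 in the necrotic kidneys, 8.32 and 8.29 in the deficient vegetable oil kidneys and 9.04 and 9.06 in the control vegetable oil kidneys.

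The largest share of rises among the 39 lists was in the matrix. Of 36 genes for the extracellular matrix and its enzymes 24 rose and 1 fell (median 0.95). The 1 that fell was Timp3, a metalloprotease inhibitor, at -0.79 ± 0.15, with adjusted p of 0.0898 without deficient replicate 1 and 0.0753 without necrotic replicate 2. The deficient vegetable oil kidneys had a median only 0.11 above the control vegetable oil kidneys for this list. Col1a1, the chain of the main fibrillar collagen, read 12.00 and 12.49 in the necrotic kidneys, 9.95 and 10.16 in the deficient vegetable oil kidneys and 10.45 and 10.28 in the control vegetable oil kidneys. Its deficient pools lay below the control pools, and the necrotic pools stood 2.19 ± 0.20 above the deficient pools. Col1a2 and Col3a1 differed by 1.95 ± 0.20 and 1.74 ± 0.25, and Lox, which crosslinks collagen, by 2.04 ± 0.17 (11.59 and 11.55 in the necrotic against 9.45 and 9.61 in the deficient vegetable oil kidneys). The list had 10 rises without deficient replicate 1, 10 without necrotic replicate 2 and 11 with only the 4 arrays.

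Markers of fibroblasts, pericytes and smooth muscle rose with the matrix: 8 of 19, with 0 lower (median 0.47). Lum, a collagen-binding proteoglycan, read 7.44 and 7.79 in the necrotic kidneys, 6.10 and 6.20 in the deficient vegetable oil kidneys and 6.48 and 6.80 in the control vegetable oil kidneys. Thy1 and Notch3, of fibroblasts and pericytes, differed by 1.30 ± 0.16 and 1.14 ± 0.13, and Des, the intermediate filament desmin, by 1.42 ± 0.15. The contractile genes Acta2 and Myh11 were not called, at 0.39 and -0.03. The summed intensity of this list was 53709 and 56546 in the necrotic kidneys, 36274 and 40938 in the deficient vegetable oil kidneys and 29026 and 30735 in the control vegetable oil kidneys, and its part in the matrix result was not tested. The rises of this list numbered 5 without deficient replicate 1, 5 without necrotic replicate 2 and 4 with only the 4 arrays. Bmp6, a TGF beta family ligand, rose to 10.43 and 10.64 in the necrotic kidneys, against 8.90 and 8.94 in the deficient vegetable oil kidneys.

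The cell cycle list had the highest median, 1.05, with 24 of 44 members higher and 1 lower, Ccnd1, which encodes cyclin D1 and was not called without any 1 of the 4 arrays (adjusted p between 0.0615 and 0.155). Plk1, the mitotic kinase polo-like kinase 1, read 9.79 and 10.36 in the necrotic kidneys, 8.79 and 7.97 in the deficient vegetable oil kidneys and 9.40 and 8.94 in the control vegetable oil kidneys. The necrotic pools were above both others, and the control pools above the deficient pools. Rrm2, the ribonucleotide reductase subunit that supplies DNA synthesis, read 10.62 and 11.00 in the necrotic kidneys, 9.48 and 8.60 in the deficient vegetable oil kidneys and 10.10 and 9.54 in the control vegetable oil kidneys. Averaged over the list, the necrotic arrays stood 0.17 and 0.85 and the deficient vegetable oil arrays -0.24 and -0.71 from the control mean, whose own arrays were at 0.16 and -0.16. The 4 fish oil arrays were lower still, at -1.16 to -1.09. Necrotic replicate 1 was therefore at the level of control replicate 1, and both deficient arrays lay below both control arrays.

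This count depended on single arrays. Of the 24 rises, the count was 1 without necrotic replicate 2, 6 without deficient replicate 2, 12 without deficient replicate 1, 28 without necrotic replicate 1 and 1 with only the 4 arrays, with list medians between 0.67 and 1.45 throughout the single omissions. The calls of Plk1 and Rrm2 (1.70 ± 0.29 and 1.77 ± 0.31) ended without necrotic replicate 2, with adjusted p = 0.0577 and 0.064. Kif23 and Bub1 (1.58 ± 0.34 and 1.51 ± 0.33) lost their calls without necrotic replicate 2 (0.097 and 0.12) and without deficient replicate 2 (0.0944 and 0.0862).

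Promoters of genes that act in G2 and mitosis are known to carry a cell cycle homology region, with TTTGAA at its core, and upstream CCAAT boxes. Promoter windows from RefSeq (build GRCr8, 250 bases before to 50 after the transcription start) were found for 17 of the 24 genes that rose. TTTGAA, searched on both strands, was present in 10 of the 17 (58.8%) and CCAAT in 10 (58.8%), with both in the same window in 7 (41.2%). In the windows of all 27457 genes the shares were 19.4%, 39.6% and 7.96%, and in those of the 11951 array genes with a window 15.6%, 39.0% and 6.48%. The cell cycle genes that did not rise were not read as a set of their own. Whether the motifs go with the rise, beyond membership of the list, was therefore not tested. A match is a description of these letters and not a site. The windows of 4 genes that rose and hold both motifs are printed here as an example, in lower case with TTTGAA and CCAAT, or their complements on the other strand, in capitals. In each of the 4 a TTTGAA, on either strand, lies downstream of a CCAAT on either strand. The complement TTCAAA is the form in Ttk, and ATTGG that in Kif23 and the first in Prc1.
Plk1 (chr1:186147408-186147707, plus strand): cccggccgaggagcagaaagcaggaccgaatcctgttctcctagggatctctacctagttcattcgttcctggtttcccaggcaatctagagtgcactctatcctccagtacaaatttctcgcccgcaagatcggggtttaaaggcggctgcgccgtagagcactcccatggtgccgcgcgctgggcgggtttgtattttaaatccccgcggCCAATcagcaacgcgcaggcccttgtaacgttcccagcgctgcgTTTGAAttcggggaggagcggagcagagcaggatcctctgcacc
Kif23 (chr8:71320535-71320834, minus strand): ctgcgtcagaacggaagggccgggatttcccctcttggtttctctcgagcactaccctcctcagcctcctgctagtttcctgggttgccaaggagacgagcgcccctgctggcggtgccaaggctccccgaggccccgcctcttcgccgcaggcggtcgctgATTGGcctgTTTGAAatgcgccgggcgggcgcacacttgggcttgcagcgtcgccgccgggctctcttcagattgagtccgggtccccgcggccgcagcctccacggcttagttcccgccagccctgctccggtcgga
Prc1 (chr1:143659231-143659530, plus strand): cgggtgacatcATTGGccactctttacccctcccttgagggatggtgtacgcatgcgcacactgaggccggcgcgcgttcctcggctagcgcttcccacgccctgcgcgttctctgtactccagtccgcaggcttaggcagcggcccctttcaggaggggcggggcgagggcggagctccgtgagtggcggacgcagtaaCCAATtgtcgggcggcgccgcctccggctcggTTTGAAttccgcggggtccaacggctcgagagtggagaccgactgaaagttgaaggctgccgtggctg
Ttk (chr8:93634389-93634688, plus strand): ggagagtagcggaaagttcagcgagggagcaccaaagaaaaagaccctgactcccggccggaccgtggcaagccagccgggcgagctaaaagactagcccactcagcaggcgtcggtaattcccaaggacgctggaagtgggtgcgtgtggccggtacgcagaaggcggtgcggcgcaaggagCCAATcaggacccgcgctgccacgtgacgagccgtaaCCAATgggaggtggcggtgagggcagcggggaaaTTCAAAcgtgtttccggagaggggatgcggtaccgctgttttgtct

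Prc1, a cross-linker of spindle microtubules, read 8.69 and 9.77 in the necrotic kidneys, 8.19 and 7.26 in the deficient vegetable oil kidneys and 8.74 and 8.37 in the control vegetable oil kidneys, and Ttk, a spindle checkpoint kinase, 7.00 and 7.80 against 6.17 and 5.74 in the deficient vegetable oil kidneys. Kif23, a kinesin of the midbody, was at 7.72 and 8.79 in the necrotic against 7.06 and 6.31 in the deficient vegetable oil kidneys. Its control vegetable oil pools were at 7.87 and 7.57, so necrotic replicate 1 lay between them. In each of these genes necrotic replicate 2 was the highest of the 4 arrays. Without necrotic replicate 2 the adjusted p of Prc1 and Ttk were 0.187 and 0.111, and without deficient replicate 2 they were 0.157 and 0.0862, and Ttk had 0.0648 without deficient replicate 1. Other motifs searched in the cell cycle windows were TTTGAAA (5 of 17), TTCGAA (1), TTTGGCGC (1) and TTTCCCGC (0).

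The same windows were read for the 495 genes at least 2-fold lower in the necrotic kidneys, 404 of which had one. Proximal tubule genes are known targets of the nuclear factors HNF1 and HNF4. The 4 forms of the HNF1 motif searched were present in 6 (1.49%), 3 (0.743%), 0 and 0 of the 404, against 0.371%, 0.12%, 0.00364% and 0.00364% of all genes. Of the HNF4 forms, CAAAGGTCA was present in 7 (1.73%) against 0.437%, CAAAGTCCA in 4 (0.99%) against 0.444% and CAAAGTTCA in 2 (0.495%) against 0.331%. The shared letters of these motifs overlap, so the counts are not independent. Absence of these letters from a window says nothing of the factors.

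Glycolysis and hypoxia response genes had 10 rises and 3 falls among 35 members (median 0.20). The share that rose (28.6%) was above the 6.41% of all genes, and the share that fell (8.57%) was near their 7.8%. Slc16a3, a lactate exporter, read 10.98 and 11.19 in the necrotic kidneys, 8.42 and 9.38 in the deficient vegetable oil kidneys and 7.69 and 7.68 in the control vegetable oil kidneys. Slc2a3, a high-affinity glucose transporter, read 9.57 and 9.70 in the necrotic against 7.16 and 7.74 in the deficient vegetable oil kidneys. Eno2, Adm and Egln3, an enolase, the vasodilator adrenomedullin and an oxygen-sensing prolyl hydroxylase, differed by 1.59 ± 0.19, 1.31 ± 0.13 and 1.15 ± 0.13. The 3 that fell were Ldhb, the lactate dehydrogenase subunit of oxidative tissue (-1.08 ± 0.16), Pfkm and Pfkfb4, the last pair not called without deficient replicate 1 (adjusted p = 0.106 and 0.139) or necrotic replicate 1 (0.0699 and 0.112), nor Pfkfb4 without necrotic replicate 2 (0.19). Vegfa, a target of the hypoxia-inducible factors, was at 0.07 ± 0.12 and was not called, and Gapdh was at 0.04 ± 0.10 (14.30 and 14.30 in the necrotic against 14.22 and 14.30 in the deficient vegetable oil kidneys). The rises counted 7 to 9 when 1 array was left out, and the falls 1 without deficient replicate 1 or necrotic replicate 1.

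Among genes of cell death and oxidative defence, 5 of 28 in the necroptosis, pyroptosis and ferroptosis list rose and 1 fell (median 0.26). Ripk3, the kinase that starts necroptosis, was not called, at 8.43 and 8.65 in the necrotic kidneys, 7.89 and 8.68 in the deficient vegetable oil kidneys and 7.07 and 7.01 in the control vegetable oil kidneys. The rises numbered 0 without deficient replicate 1, 0 without either necrotic replicate and 2 with only the 4 arrays. Hmox1, the heme-degrading enzyme, rose to 11.79 and 11.46 in the necrotic kidneys, against 9.23 and 9.95 in the deficient vegetable oil kidneys and 6.93 and 6.93 in the control vegetable oil kidneys (2.04 ± 0.47). Its call ended without deficient replicate 1 (adjusted p = 0.186) and without necrotic replicates 1 (0.127) and 2 (0.0919). In the heme, iron and NRF2 list 4 of 36 rose and 8 fell, the falls led by Osgin1, an oxidative stress growth inhibitor (-1.87 ± 0.19). The 4 rises became 0 without deficient replicate 1, 0 without necrotic replicate 1 and 2 without either other array, and the falls 5 without deficient replicate 1 or necrotic replicate 2. Nos2, inducible nitric oxide synthase, was the largest of the 3 rises among 26 renin-angiotensin and vasoactive genes, at 10.09 and 9.14 in the necrotic kidneys against 6.49 and 7.12 in the deficient vegetable oil kidneys. These rises numbered 1 without deficient replicate 1 or either necrotic replicate, and 2 without deficient replicate 2.

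In the heat shock and unfolded protein lists the shares that fell, 23.5% and 15.2%, were above the 7.8% of all genes. The share of the p53 list that fell (8%) was near that of all genes. Of 17 heat shock genes 4 fell and 0 rose, of 33 unfolded protein response and ATF4 genes 5 fell and 1, Slc7a5, rose, and of 25 p53 and apoptosis genes 2 fell and 0 rose. Without deficient replicate 1 the heat shock falls numbered 0, the unfolded protein falls 2 and the p53 falls 0, and without necrotic replicate 2 they numbered 1, 2 and 1. Without necrotic replicate 1 they numbered 2, 2 and 1, and with only the 4 arrays all were 0. Slc7a5, a carrier of large neutral amino acids, read 10.42 and 10.27 in the necrotic kidneys, 9.21 and 9.63 in the deficient vegetable oil kidneys and 7.98 and 8.03 in the control vegetable oil kidneys, and its call ended without deficient replicate 1 (adjusted p = 0.0808) and necrotic replicate 1 (0.0649). Igfbp1, which binds insulin-like growth factors, was not called, at 12.76 and 12.46 in the necrotic kidneys, 13.29 and 12.88 in the deficient vegetable oil kidneys and 9.95 and 10.10 in the control vegetable oil kidneys. Lipid synthesis had 4 falls and 0 rises among 29 members, with Acss2 at -1.83 ± 0.19 and Fdft1, the squalene synthase, at -1.54 ± 0.21. Among lysosome and phagocytosis genes 6 of 28 rose and 1 fell, led by Ctsk, a collagen-degrading cathepsin (1.03 ± 0.19). The difference of Ctsk was 0.88 without deficient replicate 2 and 0.89 without necrotic replicate 2, and its call ended in both fits. In eicosanoid metabolism 2 of 30 rose and 8 fell, with Ephx2, the soluble epoxide hydrolase, at -1.71 ± 0.16. The share of this list that rose (6.67%) was near the 6.41% of all genes, and the share that fell (26.7%) was above their 7.8%. Leaving out 1 array gave 2 to 8 falls in lipid synthesis (8 without deficient replicate 2), 2 to 7 rises in the lysosome list (2 without deficient replicate 1 or necrotic replicate 2) and 4 to 7 falls and 0 to 3 rises in eicosanoid metabolism (4 falls without deficient replicate 1 or necrotic replicate 2).

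**Figure D4:**
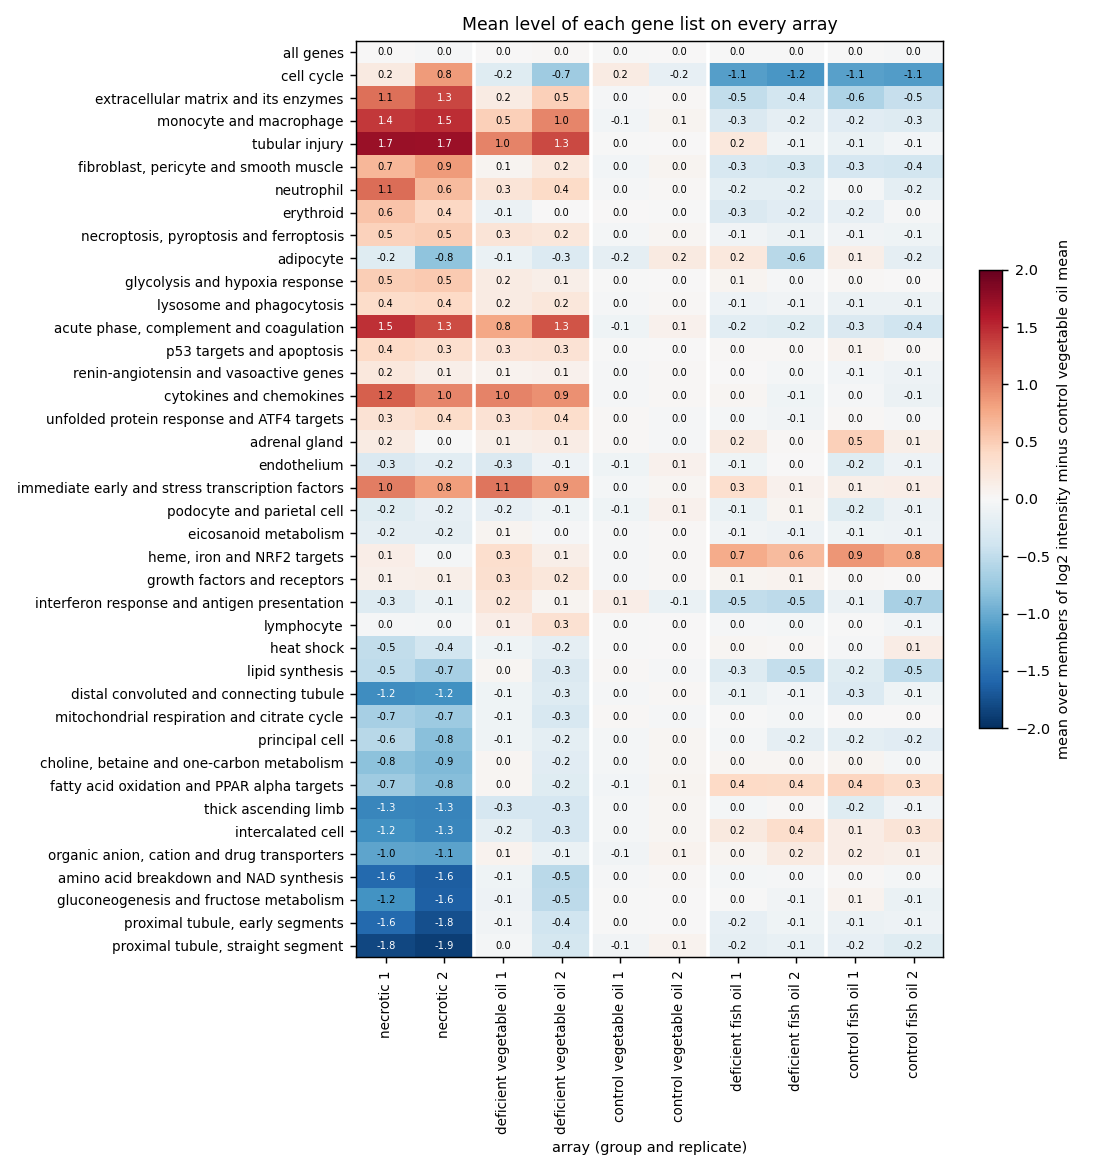
Mean over the members of each list of log2 intensity minus the control vegetable oil mean, for all 10 arrays (columns by group, necrotic first, then deficient and control vegetable oil, then deficient and control fish oil) and 39 lists plus all genes. The injury list is at 1.73 and 1.72 in the necrotic and 1.00 and 1.32 in the deficient vegetable oil arrays, the early proximal tubule list at -1.55 and -1.76 against -0.08 and -0.40, and the immediate early list overlaps between these groups.

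Fat and adrenal tissue adjoin the kidney, and their markers were read as well. Of 9 adipocyte genes 2 fell, Ucp1 and the lipid droplet gene Cidec, and 0 rose, with Cidec not called without deficient replicate 1 (adjusted p = 0.166) or either necrotic replicate (0.0613 and 0.172), and their summed intensity was 3548 and 2521 in the necrotic against 5472 and 4091 in the deficient vegetable oil kidneys. The median difference of the adipocyte list was nonetheless 0.21, with 6 members positive and 3 negative. Adipoq, the defining adipokine, read 9.24 and 8.97 against 9.05 and 8.85. Of 10 adrenal genes 0 were called, with sums of 966 and 870 against 962 and 1034. Ribosomal protein genes were called higher in 6 of 66 (9.09%), near the 6.41% of all genes called higher, and lower in 0. Their differences were small but positive in 64 of 66. In 54 of the 66 both necrotic arrays lay above both deficient arrays, against 4028 of all 14506 genes. Their median of 0.27 was between 0.22 and 0.32 under the other scalings. It was 0.26 without deficient replicate 1 and 0.18 without necrotic replicate 2. With only the 4 arrays fitted, 1 member was called higher.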

How the data were processed

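RNA of 10 pools, each of 3 rats, was labelled with a whole-transcript kit after Trizol extraction and hybridised to 1-colour arrays, per the labels' protocols. The deposited table holds log2 values, which the authors obtained with RMA, per the submitters' processing notes, which give it no version. The genome build is not given in the sources used here. RMA as generally used makes the arrays' distributions alike, so values are relative to the whole array. The deposited medians were not equal, at 7.43 and 7.37 in the necrotic and 7.29 and 7.41 in the deficient vegetable oil arrays. In the other arrays they were 7.28 to 7.30. The summed intensity of all genes was 1.18e+07 and 1.19e+07 in the necrotic against 1.29e+07 and 1.23e+07 in the deficient vegetable oil arrays. No detection call or background level was used. The number of arrays limits the precision.

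All 10 arrays of the 5 groups entered 1 linear model in limma 3.58.1 under R 4.3.3 (lmFit, then eBayes), which left 5 residual degrees of freedom and added 3.59 from the prior. The contrast was necrotic minus deficient vegetable oil, with Benjamini-Hochberg adjustment over 29214 probe sets and a threshold of 0.05. Every adjusted p is from limma's moderated test. The labels name pools of different animals as replicates. With 2 arrays against 2 an exact permutation test cannot go below p = 0.333. Of the probe sets, 15310 had 1 gene symbol, 323 several and 13581 none. Of the named ones 15279 matched the current rat gene table (GRCr8, names and promoter windows only), and 0 symbols changed. A gene with several probe sets (527 of 14506) was represented by the one of highest mean, and in the lists of largest changes by the one of largest difference.

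The members of 39 gene lists and the named genes were chosen with earlier results of these data known. Named were the 20 rises and the 20 falls of greatest size among called genes whose arrays did not overlap, up to 5 called members of each list with the largest differences, and fixed genes. Mlkl, one of the fixed genes, was not named by the annotation used. Prc1, Ttk, Ccr2, Adgre1, Cd74, Cldn16, Ucp2, Timp3, Ccnd1, Mpo, Elane, Acta2, Myh11, Vegfa, Adipoq and others named to complete a small count, to give values of uncalled markers or as genes called in both steps were chosen after their values were seen. Alternatives were other scalings, filters, prior variances, array weights, a replicate block, a fit of the 4 arrays alone, another probe set per gene and leaving out each array. The linear model and its calls were tested on simulated data with known differences added and the same spread in every group. Groups of unequal spread were not simulated, so the test cannot show how such groups affect the calls. Counts over lists, summed intensities and motif shares were not tested in this way. The per-sample columns not used numbered 0. Figures were made with matplotlib 3.10.9 and summaries with pandas 2.3.3.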

Additional observations from a re-analysis of the deposited data

How the results depend on the processing

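The number of called probe sets, 2860 in the fit of all arrays, was 1674 with array weights (707 higher, 967 lower in the necrotic kidneys) and 654 when only the 4 arrays compared were fitted (243 higher, 411 lower), of which 635 were among the 2860. Leaving out 1 of the 4 arrays gave 1040 (without deficient replicate 1) to 3125 (without deficient replicate 2) called, 411 to 1409 higher and 629 to 1716 lower; without necrotic replicate 2 there were 1312 and without necrotic replicate 1 there were 1798. Median centring gave 2584, cyclic loess 2843, repeated quantile normalization 3088, filters on dim probe sets 3495 and 3625, and a trended robust prior 3464, all within 1.5 times. The share higher among the called was 48.1% and lay between 41.6% and 49.2% under the other scalings. With the replicate number as a block there were 2678 called (1301 higher, 1377 lower), 2485 of them shared. The replicate numbers do not pair the pools: deviations of same-numbered necrotic and deficient arrays correlated at -0.17, and over all 10 pairs of groups between -0.17 and 0.14. None of the 178 named and called genes changed sign; of the uncalled ones, Alb was at 0.18 without deficient replicate 2 (-2.02 with it), Ripk3 at -0.14 without deficient replicate 1 (0.25 with it) and Gapdh at -0.01 after median centring (0.04 before). Of the 178, 102 were called under every alternative that held them and 76 lost the call in at least 1. Among the counts of list members under these alternatives, 856 were within 1.5 times of the reported count and 236 were not.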

Other observations

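Of the largest rises, several belong to no list described above. Niban1, a stress-responsive regulator of translation, read 11.14 and 11.11 in the necrotic kidneys, 8.14 and 8.81 in the deficient vegetable oil kidneys and 7.46 and 7.68 in the control vegetable oil kidneys (2.65 ± 0.20). Il1rl1, the receptor for interleukin 33, read 8.91 and 9.61 in the necrotic kidneys, 7.13 and 7.15 in the deficient vegetable oil kidneys and 6.46 and 6.52 in the control vegetable oil kidneys. Clmp, a cell adhesion molecule, read 10.83 and 11.19 in the necrotic against 8.33 and 9.02 in the deficient vegetable oil kidneys, whose levels overlapped with the 8.47 and 8.57 of the control vegetable oil kidneys. In all 3 genes both necrotic pools lay above both deficient vegetable oil pools, which the rule that chose them required. They also lay above both control vegetable oil pools. Trh, the thyrotropin-releasing hormone gene, was at 9.99 and 9.58 in the necrotic kidneys, 6.61 and 8.49 in the deficient vegetable oil kidneys and 6.05 and 6.02 in the control vegetable oil kidneys, and was not called without necrotic replicate 1 (adjusted p = 0.108) or 2 (0.0745). Or5b95, an olfactory receptor gene, had unequal necrotic pools, at 8.53 and 6.55 against 5.44 and 5.38 in the deficient vegetable oil kidneys. It was not called without deficient replicate 1 (adjusted p = 0.174), deficient replicate 2 (0.117) or necrotic replicate 1 (0.107), nor with array weights, a replicate block, a trended prior or only the 4 arrays (difference 2.14 with all arrays).

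Insulin-like growth factor binding proteins differed in direction. Igfbp5 fell to 11.17 and 11.62 in the necrotic kidneys, against 12.60 and 12.65 in the deficient vegetable oil kidneys, while Igfbp3 was at 10.73 and 10.98 against 9.50 and 9.95. The call of Igfbp3 ended without deficient replicate 1 (adjusted p = 0.063) and necrotic replicate 2 (0.0609). Of 44 growth factors and receptors 6 rose and 8 fell, against 4 and 3 without deficient replicate 1, 4 and 4 without necrotic replicate 1, 3 and 3 without necrotic replicate 2 and 1 and 3 with only the 4 arrays. Edn3, a vasoactive endothelin, was the 1 fall among the renin-angiotensin and vasoactive genes, by 0.94 on the log2 scale, and was not called without deficient replicate 1 (adjusted p = 0.0567).

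The largest difference on the arrays was in a probe set that the annotation used does not name, 10822294, chosen after its values were seen. It read 4.58 and 4.75 in the necrotic kidneys, 11.61 and 10.60 in the deficient vegetable oil kidneys and 10.51 and 10.95 in the control vegetable oil kidneys (-6.44 ± 0.29, adjusted p = 2.36e-05). Both necrotic pools were more than 5 units below every other pool of the series.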
